A study of Mus musculus with 44 samples.

Results

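The estrogen-related receptor genes Esrra, Esrrb and Esrrg and the PGC-1 coactivator genes Ppargc1a and Ppargc1b were followed in RNA-seq libraries of the mouse gastric corpus. The 5 genes were chosen by name from 31484 gene names in the deposited table, and all 5 were among the 14901 genes abundant enough to be tested. The libraries came from the gastric corpus of BalbC mice aged 13 months, either wild-type (WT) or knockout (KO) for the H+/K+ATPase beta subunit, which is encoded by Atp4b. The mice received the gastrin receptor antagonist netazepide (NTZ, earlier named YF476) or its vehicle polyethylene glycol (PEG), which gave 44 libraries in all, with 11 in WT/PEG and 13 in KO/PEG on vehicle, and 9 in WT/NTZ and 11 in KO/NTZ on the antagonist. The knockout was made by homologous recombination in the first exon of the beta subunit gene, and both NTZ and vehicle were injected repeatedly from a young age, so no group was free of injections. Netazepide blocks the receptor through which gastrin drives acid secretion and mucosal growth. The labels number the animals but do not say that every library came from its own mouse: the number of WT_172 is on a pair of WT/PEG libraries, that of KO_110 is on 1 vehicle and 1 NTZ library, KO/PEG has more libraries than the study's methods give mice for that group, and p-values therefore measure the spread between libraries.

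Estrogen-related receptors are orphan nuclear receptors, that is, receptors with no established natural ligand. ERR alpha (Esrra), beta (Esrrb) and gamma (Esrrg) bind a shared DNA element and switch on genes of mitochondrial energy production. Their activity is set largely by coactivators: PGC-1 alpha (Ppargc1a) and PGC-1 beta (Ppargc1b) bind them and other nuclear receptors, and PGC-1 alpha is the inducible partner known from brown fat, muscle and fasting liver. The acid-secreting parietal cell of the corpus is among the cells richest in mitochondria, and ERR gamma is known to be expressed in it.

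Most reads of each gene belonged to a single transcript model, so the start site in use could be looked up for the receptors. The most abundant transcript held 97.3% of the summed Esrra counts, 97.3% for Esrrg, 98.6% for Ppargc1a, 98.7% for Ppargc1b and 87.6% for Esrrb. The 250 bases just before the start of these transcripts are shown for the 3 receptors, because the promoter of the receptor that was higher in KO and those of the receptors that were lower can then be set side by side. The sequences are RefSeq promoter windows of the GRCm38.p6 build, written 5′ to 3′ on the strand of the gene, with CpG dinucleotides in capitals.
Esrra, chr19:6921809-6922058, minus strand: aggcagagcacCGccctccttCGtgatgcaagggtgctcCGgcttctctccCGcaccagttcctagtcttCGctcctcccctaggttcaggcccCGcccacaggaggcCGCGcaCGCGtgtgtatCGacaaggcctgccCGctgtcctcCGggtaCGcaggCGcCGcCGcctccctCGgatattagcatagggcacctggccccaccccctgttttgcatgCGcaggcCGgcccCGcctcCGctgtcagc
Esrrg, chr1:187997577-187997826, plus strand: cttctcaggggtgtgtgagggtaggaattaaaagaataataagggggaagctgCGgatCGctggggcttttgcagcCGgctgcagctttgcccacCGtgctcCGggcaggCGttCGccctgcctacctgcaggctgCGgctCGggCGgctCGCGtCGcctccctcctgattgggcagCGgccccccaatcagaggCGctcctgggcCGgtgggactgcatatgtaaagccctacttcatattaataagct
Esrrb, chr12:86360867-86361116, plus strand: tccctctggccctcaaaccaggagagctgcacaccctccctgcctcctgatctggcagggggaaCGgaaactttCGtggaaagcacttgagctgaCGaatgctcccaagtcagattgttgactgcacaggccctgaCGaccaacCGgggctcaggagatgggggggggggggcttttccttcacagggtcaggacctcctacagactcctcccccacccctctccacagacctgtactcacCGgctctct

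The Esrra stretch held 22 CpG dinucleotides, the Esrrg stretch 16 and the Esrrb stretch 6. Over the whole RefSeq window, which also takes in the first 50 transcribed bases, 81.6% of the 32851 promoters listed had fewer CpG dinucleotides than Esrra, 71.9% had fewer than Esrrg and 47.9% had fewer than Esrrb. The core of the element that the receptors bind, AAGGTCA, was searched on both strands and was in 4.72% of all promoter windows. None of the 8 windows listed for Esrra, Esrrb, Esrrg and Ppargc1a held it, which says only that these letters were not in these windows. The window listed for Ppargc1a belonged to a start site (chr5:51567725, minus strand) other than that of its most abundant transcript, which starts at chr5:51553922. The receptor transcripts can be told apart by sequence: no stretch of 31 bases in the most abundant transcript of any of the 5 genes occurred in a transcript of another of the 5, and the share of such stretches found in any other gene was between 0.0468% (Esrrb) and 1.94% (Esrra, which shares 43 of them with Trmt112).

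Library totals ranged from 6065084 to 21945124 estimated counts. Expression is given as CPM, a gene's counts relative to the library total after scaling between libraries, fold changes are on the log2 scale, and a gene was called changed at an adjusted p below 0.05 in edgeR's quasi-likelihood test of all 14901 genes. The knockout label was borne out by Atp4b, which was at 2139 to 5738 CPM in all WT libraries, at 2.28 to 17.04 CPM in KO/PEG and at 4.21 to 40.6 CPM in KO/NTZ. The proton pump alpha subunit Atp4a was lower in KO/PEG than WT/PEG (4044 ± 1625 CPM (SD, n = 13) against 8087 ± 1015 CPM (n = 11), edgeR adjusted p = 1.86e-06). Of 15 parietal cell markers other than Atp4b, 13 were lower and 1 higher in KO/PEG than WT/PEG (median log2 fold change −1.24). Their summed level, of which Atp4a was the largest part, was 11110 to 15740 CPM in WT/PEG against 4887 to 11760 in KO/PEG. Car2, the marker that was higher, averaged 1377 CPM in WT/PEG and 1701 CPM in KO/PEG. Markers of other cell types differed in this comparison too, where 74.7% of all genes were called (37.5% higher and 37.2% lower). All 7 markers of mucous neck cells and metaplasia were higher (median log2 fold change 3.87), while 4 of 5 tested chief cell markers (−2.08), 5 of 5 neuron markers (−2.03), 6 of 7 smooth muscle markers (−0.74) and 3 of 4 surface mucous markers (−1.31) were lower. Of 5 endocrine markers 3 were higher and 1 lower, 3 of 6 immune markers were higher, and 3 of 5 fibroblast markers were lower. A count such as 3 of 4 is close to the share of all genes called. The part of these shifts in the members' differences was not tested. In whole-tissue RNA, fewer cells of a type and less RNA per cell cannot be told apart. Libraries also differed in how expression depended on transcript length: the length slope, the change in a library's log2 CPM relative to the mean of all libraries for each doubling of transcript length, was 0.0741 to 0.331 in the WT libraries, −0.353 to 0.154 in KO/PEG and −0.319 to −0.0646 in KO/NTZ. This slope moved with the genotype. For the members, and for the called genes named from the gene lists, the value with the slope as a covariate is given where it changed a call or a direction.

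In KO/PEG versus WT/PEG, 4 of the 5 genes fell and 1 rose. Esrrg fell most, followed by Ppargc1a, Esrrb and Ppargc1b, while Esrra rose modestly. This comparison changed much of the transcriptome: 74.7% of all tested genes were called, 5587 higher and 5538 lower, so calls for all 5 are close to the background and the sizes are given for each gene.

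Esrrg encodes ERR gamma, a receptor of tissues with high and steady oxidative demand such as heart, kidney and stomach. It was at 210.3, 239.5 and 322.5 CPM (lowest, median and highest library) in WT/PEG and at 8.34, 33.7 and 77.6 CPM in KO/PEG. Every KO/PEG library was below every WT/PEG library. The log2 fold change was −2.87 ± 0.311 (standard error (SE), 7.33-fold lower, edgeR adjusted p = 1.65e-10), and 0.792% of all genes had a lower value. Esrrg was also the member that varied most between KO/PEG libraries, with a coefficient of variation of 63.5% against 15.2% in WT/PEG. With the length slope as a covariate the difference was −0.61 ± 0.355 and was not called (edgeR adjusted p = 0.181).

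Ppargc1a encodes PGC-1 alpha, the inducible coactivator of mitochondrial biogenesis. It was at 13.8, 25.9 and 34.5 CPM in WT/PEG and at 2.20, 4.52 and 7.09 CPM in KO/PEG. The ranges did not overlap. Its log2 fold change was −2.48 ± 0.199 (5.58-fold lower, edgeR adjusted p = 5.59e-14), and −1.43 ± 0.305 with the length slope as a covariate (edgeR adjusted p = 0.000379).

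Esrrb encodes ERR beta, better known from embryonic stem cells and placenta, and was a weakly expressed receptor in this tissue. It was at 10.8, 15.4 and 24.95 CPM in WT/PEG and at 2.22, 3.88 and 8.49 CPM in KO/PEG. All 13 KO/PEG libraries were below the lowest WT/PEG library. The log2 fold change was −1.95 ± 0.220 (3.86-fold lower, edgeR adjusted p = 4.34e-10), and −1.70 ± 0.426 with the length slope (edgeR adjusted p = 0.00206).

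Ppargc1b encodes PGC-1 beta, the more constitutive relative of PGC-1 alpha. It was at 7.19, 8.83 and 10.03 CPM in WT/PEG and at 2.07, 3.14 and 5.04 CPM in KO/PEG, which corresponds to 17 to 134 estimated counts per KO/PEG library. Again no KO/PEG library reached the WT/PEG range of CPM. The log2 fold change was −1.32 ± 0.124 (2.49-fold lower, edgeR adjusted p = 5.05e-12), and −1.06 ± 0.226 with the length slope (edgeR adjusted p = 0.00039).

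Esrra encodes ERR alpha, the broadly expressed receptor of the family. It was at 72.4, 83.8 and 108.0 CPM in WT/PEG and at 67.9, 108.7 and 182.1 CPM in KO/PEG. The ranges overlapped: 7 of the 13 KO libraries exceeded the whole WT/PEG range and 1 lay under it. The log2 fold change was 0.46 ± 0.119 (1.37-fold higher, edgeR adjusted p = 0.000747), a value that 69.3% of all genes were below. The direction turned with the length slope as a covariate, to −0.53 ± 0.140 (edgeR adjusted p = 0.00345). Levels divided by transcript length (TPM) were 40.7, 46.5 and 55.8 in WT/PEG and 52.8, 66.8 and 80.9 in KO/PEG.

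**Figure D1:**
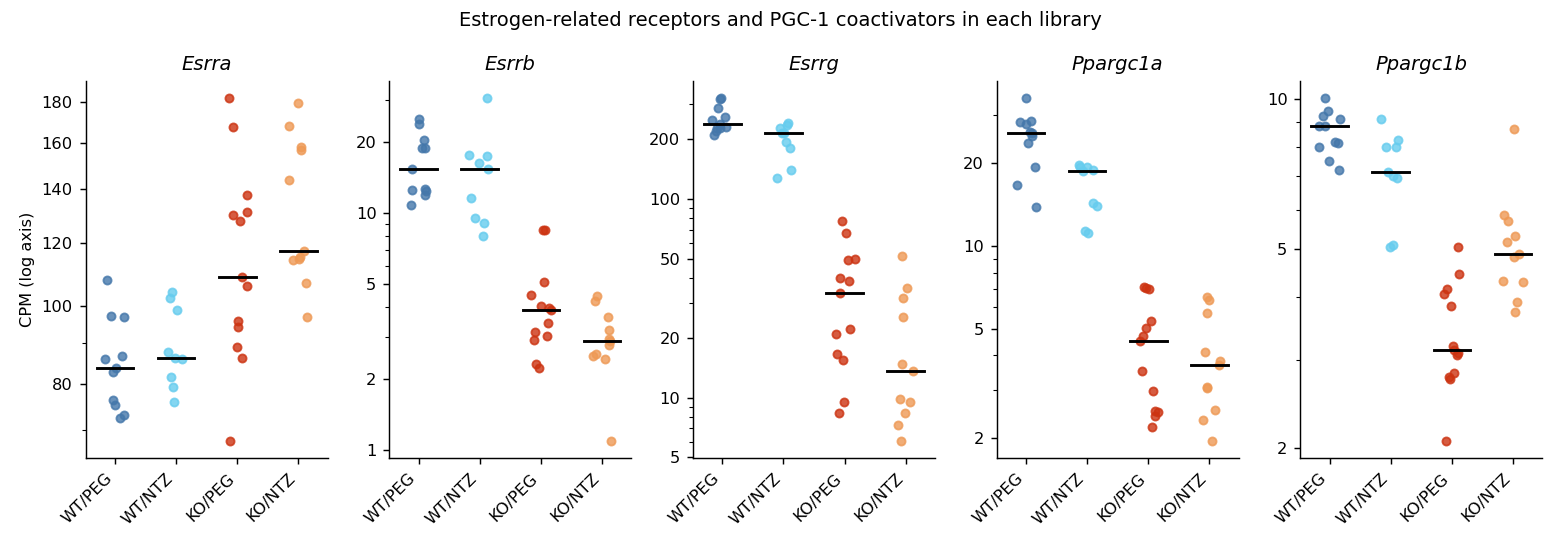
CPM (log axis) of the 3 receptor genes and 2 coactivator genes in each of the 44 libraries, by group, where each point is a library and the line is the group median. Esrrb, Esrrg, Ppargc1a and Ppargc1b are separate between KO/PEG and WT/PEG, with Esrrg spread from 8.34 to 77.6 CPM in KO/PEG, and Esrra overlaps.

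The length of the transcripts is set beside these differences, a comparison chosen after seeing the data. The most abundant transcript was 2.24 kb for Esrra, 3.66 kb for Ppargc1b, 4.30 kb for Esrrb, 5.29 kb for Esrrg and 6.46 kb for Ppargc1a. Across all genes, the median genotype difference under vehicle (log2) was 0.74 for transcripts under 1.5 kb, 0.16 from 1.5 to 3 kb, −0.28 from 3 to 5 kb and −0.63 over 5 kb. Set against genes of their own length class, 0.622% of 2411 genes over 5 kb had a lower value than Esrrg and 1.37% a lower value than Ppargc1a. Among 4004 genes of 3 to 5 kb, 2.7% were below Esrrb and 8.39% below Ppargc1b, and among 5126 genes of 1.5 to 3 kb, 66.9% were below Esrra.

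Within the KO groups, Esrrg and Esrra moved with the length slope in opposite directions. Over the 13 KO/PEG libraries, log2 CPM of Esrrg rose with the slope (Pearson's r = 0.824, Spearman's rho = 0.769, two-sided permutation p = 0.00057 and 0.00322, adjusted p = 0.0038 and 0.0215 over 20 relations), and without the 2 libraries of most extreme slope r was 0.741. Over the 11 KO/NTZ libraries the values for Esrrg were r = 0.95 and rho = 0.9 (permutation p = 2e-05 and 0.00038, adjusted p = 0.0004 and 0.0076, r = 0.907 without 2 libraries). Esrra fell with the slope in KO/PEG (r = −0.88, rho = −0.841, permutation p = 0.00012 and 0.00085, adjusted p = 0.0012 and 0.0085, r = −0.783 without 2 libraries) and in KO/NTZ (r = −0.756, rho = −0.736, permutation p = 0.011 and 0.0133, adjusted p = 0.0351 and 0.038, r = −0.777 without 2 libraries). Ppargc1a rose with it in KO/PEG (r = 0.757, rho = 0.72, permutation p = 0.00334 and 0.00754, adjusted p = 0.0167 and 0.0276, r = 0.672 without 2 libraries), and Esrrb did not move with it detectably in any group, with r between −0.139 and 0.414 and adjusted p of at least 0.322. The WT groups were less uniform. Esrra fell with the slope in WT/PEG (r = −0.722, rho = −0.773, permutation p = 0.0123 and 0.00769, adjusted p = 0.0351 and 0.0276, r = −0.727 without 2 libraries) and did not pass in WT/NTZ (r = −0.361, rho = −0.467, exact permutation p = 0.333 and 0.213, adjusted p = 0.444 and 0.355). For Esrrg in WT/NTZ r was 0.797 and rho 0.617 (exact permutation p = 0.0112 and 0.0857, adjusted p = 0.0351 and 0.156), a relation that rested on 2 libraries, without which r was 0.223. In WT/PEG Esrrg had the same direction but did not pass after adjustment (r = 0.653, rho = 0.591, permutation p = 0.0296 and 0.0596, adjusted p = 0.0658 and 0.119, r = 0.623 without 2 libraries). Ppargc1b went both ways, with r = 0.736 and rho = 0.833 in WT/NTZ (exact permutation p = 0.0248 and 0.00827, adjusted p = 0.062 and 0.0276) and r = −0.499 and rho = −0.636 in KO/NTZ (permutation p = 0.113 and 0.0398, adjusted p = 0.205 and 0.0995). The slope is computed from all genes, these relations were chosen after seeing the data, and what sets the slope was not tested.

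One KO library had a slope inside the WT range. In the KO/PEG library numbered 46 the slope was 0.154, and its share of mitochondrially encoded RNA was 14.5% of counts, the highest of all 44 libraries (1.88% to 7.84% in the other KO libraries and 5.83% to 11.8% in WT). On the CPM scale each of the 5 genes was below all 20 WT libraries there: Esrrg was at 77.6 CPM against a WT minimum of 128.1, Ppargc1a at 7.02 against 11.1, Esrrb at 3.98 against 7.99, Ppargc1b at 4.46 against 5.05 and Esrra at 67.9 against 72.4. On the length-scaled TPM measure this was so for Esrrg (27.7 against a WT minimum of 27.8) and Esrrb (1.72 against 1.99), while Ppargc1a (2.03) and Ppargc1b (2.27) lay inside the WT ranges and Esrra (60.4) was above the highest WT library (59.4). Leaving this library out changed no call of a member.

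**Figure D2:**
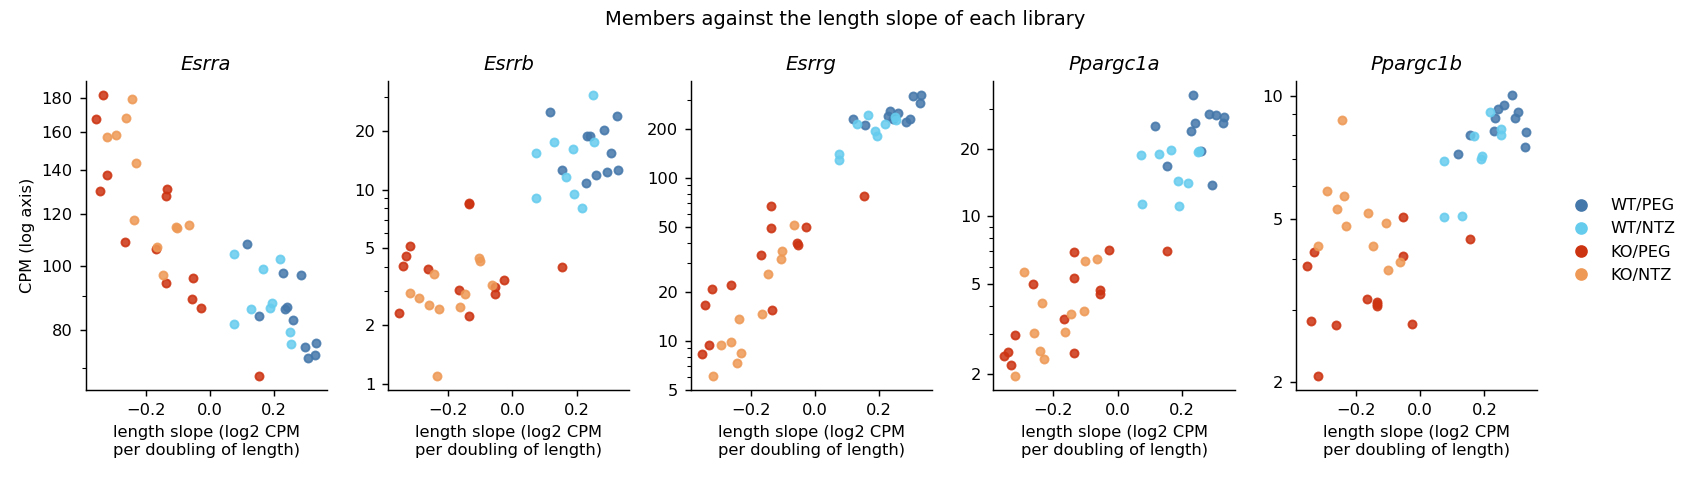
CPM (log axis) of each gene against the length slope of the library (change of log2 CPM for each doubling of transcript length, relative to the mean of all libraries), with 1 point for each of 44 libraries coloured by group. Esrrg climbs and Esrra declines with the slope inside the KO groups, and the KO/PEG library at a slope of 0.154 lies below the WT libraries in every panel.

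Per unit of transcript length (TPM, counts divided by transcript length and scaled to the same sum in each library), the balance within the receptor family shifted from a near-equal share of ERR gamma and ERR alpha to mostly ERR alpha. Division by transcript length does not take out the length slope of a library. With that slope as a covariate, Esrrg was not called in KO/PEG versus WT/PEG and Esrra turned lower, as given above. The part of the slope in this shift of balance was not tested. Esrrg made up 42.9%, 50.3% and 62.0% (lowest, median and highest) of the length-scaled sum of the 3 receptors in WT/PEG, and 2.02%, 11.5% and 30.8% in KO/PEG. Esrra made up a median of 45.6% in WT/PEG and 87.3% in KO/PEG, and Esrrb 3.61% and 1.51%. On the same length-scaled measure Ppargc1a was 65.6% of the 2 coactivators (median) in WT/PEG and 38.7% in KO/PEG. In WT/PEG the order of length-scaled levels was Esrrg (median TPM 50.7) and Esrra (46.5), whose ranges overlapped, then Ppargc1a (5.13), Esrrb (4.13) and Ppargc1b (2.70), whose ranges all overlapped. In KO/PEG the order was Esrra (66.8), whose range stood clear of all others, Esrrg (8.43), Ppargc1b (1.15), Esrrb (1.03) and Ppargc1a (0.837), each of which overlapped the next. Between these groups the TPM of Ppargc1b overlapped, at 2.11 to 3.28 in WT/PEG and 0.632 to 2.27 in KO/PEG.

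The log2 ratio of the CPM of Esrrg to that of Esrra was 1.57 ± 0.357 (SD, n = 11) in WT/PEG and −2.01 ± 1.38 (n = 13) in KO/PEG, a difference of −3.58 (two-sided permutation p = 2e-05, the smallest that these resamples can give in a two-sided test, adjusted p = 8e-05 over 8 ratio tests). The log2 ratio of Ppargc1a to Ppargc1b was 1.46 ± 0.398 in WT/PEG and 0.26 ± 0.666 in KO/PEG, a difference of −1.20 (permutation p = 4e-05, adjusted p = 0.000107). In both ratios the numerator has the longer transcript, and the part of the length slope in these differences was not tested. The Esrrg ratios of the KO/PEG libraries, −4.31 to 0.191, were all below the lowest WT/PEG value of 1.09, and the coactivator ratios of −0.873 to 1.305 overlapped those of WT/PEG, 0.639 to 1.95.

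**Figure D3:**
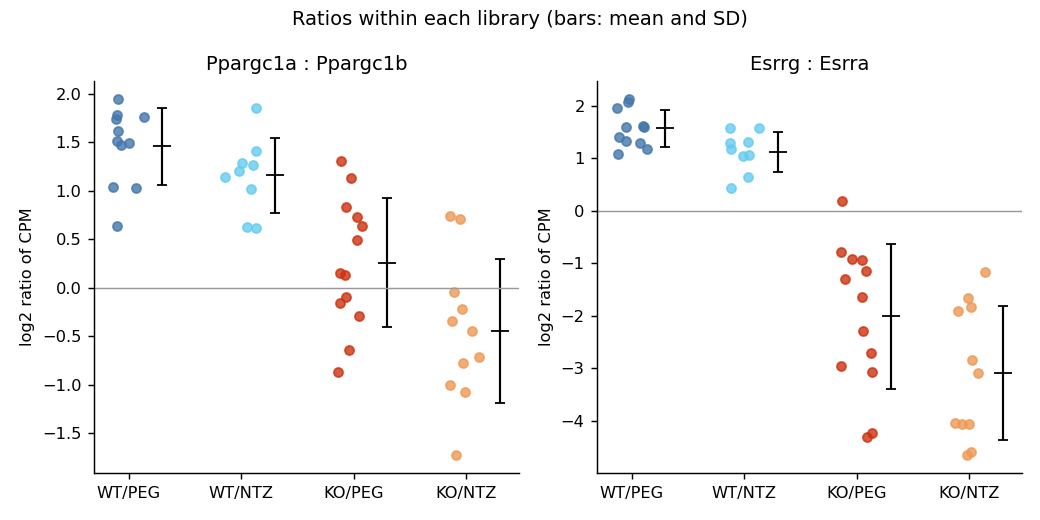
Log2 ratio of CPM within each library, Ppargc1a to Ppargc1b on the left and Esrrg to Esrra on the right, by group, where points are libraries and bars give the mean and SD. The Esrrg ratio averages 1.57 and 1.12 in WT given PEG and NTZ, and −2.01 and −3.09 in KO given PEG and NTZ.

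The comparison of KO/NTZ versus WT/NTZ asked the same genotype question in mice given the antagonist, and it shares no library with the comparison under vehicle. All 5 genes were called, with 72.4% of all genes called as background. Esrrg was at 128.1, 214.1 and 242.1 CPM in WT/NTZ and at 6.07, 13.6 and 51.5 CPM in KO/NTZ (log2 fold change −3.32 ± 0.347, edgeR adjusted p = 1.31e-10). Esrrb was at 7.99, 15.5 and 30.7 CPM and at 1.09, 2.88 and 4.46 CPM (−2.33 ± 0.248, edgeR adjusted p = 2.10e-10), and Ppargc1a at 11.1, 18.8 and 19.8 CPM and at 1.96, 3.69 and 6.51 CPM (−2.04 ± 0.219, edgeR adjusted p = 2.42e-10). These 3 genes again had no overlap between the genotypes, and with the length slope as a covariate their differences were −1.35, −2.11 and −1.09 and stayed called (edgeR adjusted p = 0.00211, 0.000143 and 0.0052). Ppargc1b differed less, at 5.05, 7.12 and 9.10 CPM in WT/NTZ and 3.75, 4.89 and 8.71 CPM in KO/NTZ (−0.48 ± 0.136, edgeR adjusted p = 0.00181), and its call was lost with the length slope (−0.24, edgeR adjusted p = 0.479). Esrra was at 75.9, 86.3 and 104.1 CPM in WT/NTZ and 97.0, 117.3 and 179.5 CPM in KO/NTZ (0.59 ± 0.132, edgeR adjusted p = 0.00014), with 10 of 11 KO/NTZ libraries above every WT/NTZ library. With the length slope its sign turned (−0.27, edgeR adjusted p = 0.151). The Esrrg to Esrra log2 ratio differed by −4.21 between KO/NTZ and WT/NTZ (exact permutation p = 1.19e-05, the smallest this design allows, adjusted p = 8e-05) and the Ppargc1a to Ppargc1b ratio by −1.61 (exact permutation p = 7.14e-05, adjusted p = 0.000143).

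NTZ in KO mice changed 1 of the 5 genes, in a comparison that shares the KO/PEG libraries with the genotype comparison above. In KO/NTZ versus KO/PEG, Ppargc1b rose, from 2.07, 3.14 and 5.04 CPM to 3.75, 4.89 and 8.71 CPM, where 5.56% of all genes were called (442 higher and 387 lower). All 11 KO/NTZ libraries were above the KO/PEG median and 5 were above every KO/PEG library. The log2 fold change was 0.57 ± 0.126 (1.49-fold higher, 95% confidence interval 0.32 to 0.83, edgeR adjusted p = 0.00363), which 94.6% of all genes were below. Under NTZ, 6 of 11 KO libraries remained below the whole WT/NTZ range. Of the KO animals, 10 of 11 given NTZ but 6 of 13 given PEG carry a number below 100. In WT, 5 of 9 given NTZ and 0 of 11 given PEG do, so the genotype comparisons differ in this too. With only KO animals so numbered, the change was 0.34 and was not called (edgeR adjusted p = 0.108).

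The other 4 genes were not called in KO/NTZ versus KO/PEG. The log2 fold change of Esrrg was −0.81 ± 0.306 (95% confidence interval −1.43 to −0.20, edgeR adjusted p = 0.0995), of Esrrb −0.52 ± 0.231 (−0.98 to −0.05, edgeR adjusted p = 0.158), of Ppargc1a −0.14 ± 0.204 (−0.55 to 0.27, edgeR adjusted p = 0.664) and of Esrra 0.19 ± 0.118 (−0.05 to 0.43, edgeR adjusted p = 0.299). For Esrrg, 9 of 11 values under NTZ lay below the vehicle median. The call for Esrrg turned on single libraries. It passed without KO_109 of KO/PEG (edgeR adjusted p = 0.0392), KO_53 of KO/PEG (0.0441) or KO_25 of KO/NTZ (0.0191). The edgeR adjusted p ranged from 0.0191 to 0.196 over the 44 fits that each left out 1 library, and with the length slope it was −0.65 (edgeR adjusted p = 0.024). The Ppargc1a to Ppargc1b log2 ratio was −0.44 ± 0.742 (SD, n = 11) in KO/NTZ and 0.26 ± 0.666 (n = 13) in KO/PEG, a difference of −0.70 (permutation p = 0.0228, adjusted p = 0.0304) that did not pass with medians (−0.60, adjusted p = 0.106, permutation test) or with KO animals numbered below 100 (−0.33, adjusted p = 0.354, exact permutation test). The Esrrg to Esrra ratio differed by −1.08 (permutation p = 0.0615, adjusted p = 0.0703).

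Markers of other cell types differed beside Ppargc1b in this comparison, where 5.56% of all genes were called. Of 7 smooth muscle markers, 4 were higher and none lower in KO/NTZ than KO/PEG, and their summed level was 1106 to 3556 CPM (median 1826) in KO/PEG and 2188 to 4837 CPM (median 3672) in KO/NTZ. Of 15 parietal markers, 4 were lower and none higher, with a summed median of 7414 CPM in KO/PEG and 6259 CPM in KO/NTZ. Atp4a, the largest part of that sum, was not called (log2 fold change −0.36, edgeR adjusted p = 0.18). Of 5 endocrine markers, 3 were lower and 1 higher, and of 6 proliferation markers 3 were higher. The part of these shifts in the change of Ppargc1b was not tested.

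NTZ in WT mice changed none of the 5 genes in edgeR's test, where 1.03% of all genes were called (153 higher and 1 lower), and Ppargc1a was the only member with an unadjusted p below 0.05. Ppargc1a was at 13.8, 25.9 and 34.5 CPM in WT/PEG and at 11.1, 18.8 and 19.8 CPM in WT/NTZ, with all 9 WT/NTZ libraries below the WT/PEG median. Its log2 fold change was −0.59 ± 0.210 (95% confidence interval −1.01 to −0.16, edgeR adjusted p = 0.279), and 1.12% of all genes had a lower value. Ppargc1b was at −0.26 ± 0.135 (−0.54 to 0.01) and Esrrg at −0.36 ± 0.327 (−1.02 to 0.29), the latter with 4 of 9 WT/NTZ libraries below every WT/PEG library. Esrrb was at −0.14 (−0.61 to 0.33) and Esrra at 0.06 (−0.20 to 0.33), and neither interval was wide enough to include a change of 1 on the log2 scale. With the length slope Esrrg was at 0.09 and Esrra at −0.11, again not called. Ppargc1b was called in this comparison when an animal number of 100 or above entered as a covariate (−0.49, edgeR adjusted p = 0.0407). Such a number is on all 11 WT/PEG libraries but on 4 of 9 WT/NTZ libraries. No member was called by DESeq2 or limma-trend. The Esrrg to Esrra ratio was lower in WT/NTZ than in WT/PEG, at 1.12 ± 0.386 (SD, n = 9) against 1.57 ± 0.357 (n = 11), a difference of −0.45 (exact permutation p = 0.0148, adjusted p = 0.0237). The median length slope was 0.188 in WT/NTZ and 0.260 in WT/PEG, and its part in this ratio was not tested. The WT/NTZ libraries WT_92, WT_117 and WT_118 held more skeletal muscle RNA than the others, a choice made after seeing the data. The 4 tested markers of that tissue summed to 12.5 to 168.1 CPM over WT/NTZ against 8.15 to 18.6 CPM in WT/PEG. The sums leave out 4 further markers (Myh1, Myh2, Myh4 and Myoz1), which were too low to be tested. Without those 3 libraries no member was called either. The 6 squamous epithelium markers summed to 0.65 to 2436 CPM (median 477) in WT/NTZ and 0.599 to 376.0 CPM (median 1.365) in WT/PEG, none of the 6 was called, and their part in these values was not tested.

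The effect of NTZ differed between genotypes for Ppargc1b. Its log2 fold change with NTZ was 0.57 in KO and −0.26 in WT, and the test of the difference gave 0.84 ± 0.185 (95% confidence interval 0.46 to 1.21, edgeR adjusted p = 0.0167), where 0.96% of all genes were called (36 higher, 107 lower). The difference was not called without WT_92, WT_117 and WT_118 (0.75, edgeR adjusted p = 0.100), with only KO animals numbered below 100 (0.61, edgeR adjusted p = 0.125) or with library totals in place of scaling factors (0.69, edgeR adjusted p = 0.0728). For Ppargc1a the difference was 0.44 (−0.14 to 1.03), for Esrra 0.13 (−0.23 to 0.48), for Esrrb −0.38 (−1.04 to 0.28) and for Esrrg −0.45 (−1.34 to 0.45), and none was called.

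**Figure D4:**
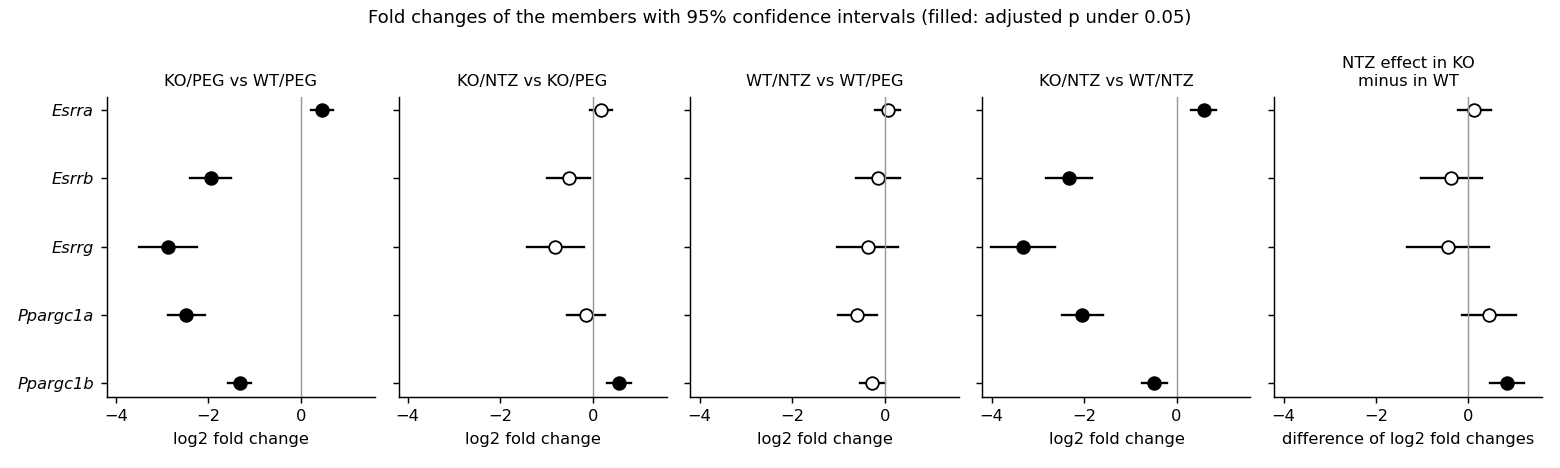
Log2 fold change of each gene in the 4 comparisons, and the difference of the NTZ effects between KO and WT, with 95% confidence intervals, where filled points have an adjusted p below 0.05. The genotype comparisons show the large falls of Esrrg, Ppargc1a and Esrrb, and Ppargc1b is the only filled point among the NTZ comparisons.

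At the level of single transcripts, tested over 30782 transcripts with 53.5% called in KO/PEG versus WT/PEG, the most abundant transcript of each gene moved as the gene did. A short Esrra transcript of 727 bases (ENSMUST00000173635) fell while the gene rose: it held 4.49% of Esrra counts in WT/PEG and 0.393% in KO/PEG (log2 fold change −3.35 ± 0.904, edgeR adjusted p = 0.00186). It averaged 3.99 ± 1.98 CPM (SD) in WT/PEG and 0.371 ± 0.627 CPM in KO/PEG, so its estimates rest on few reads. For Esrrb the main transcript (ENSMUST00000116402) fell by 2.14 ± 0.647 on the log2 scale (edgeR adjusted p = 0.00504), whereas the transcript from a second start site (ENSMUST00000110204, from chr12:86421644) was at 1.48 ± 1.55 CPM in WT/PEG and 0.777 ± 1.28 CPM in KO/PEG and was not called (−0.96, edgeR adjusted p = 0.514). That second transcript made up 8.98% of Esrrb in WT/PEG, 14.5% in KO/PEG and 30.8% in KO/NTZ. Of Esrrg, the main transcript held 97.4% of the counts in WT/PEG, and that of the distal start site (ENSMUST00000110939) was too low to be tested. It averaged 4.52 ± 4.65 CPM in WT/PEG, 0.542 ± 1.07 CPM in WT/NTZ and 0.0105 ± 0.0379 CPM in KO/PEG.

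The genes that varied most like each member across the 44 libraries, after the group means were removed, were named by Pearson's r of log2 CPM. For Esrrg they were Aldh6a1 (r = 0.966, rho = 0.928), Prps2 (0.957, 0.946), Usp32 (0.954, 0.958), Ghr (0.944, 0.931) and Tmem106b (0.942, 0.924), and each of the 5 was lower in KO/PEG than in WT/PEG, with log2 fold changes from −2.86 (Aldh6a1) to −1.22 (Ghr). For Esrra they were Pafah1b3 (0.937, 0.933), Csnk1g2 (0.93, 0.925), Smagp (0.929, 0.934), Card19 (0.928, 0.916) and Abhd17a (0.927, 0.921), all with transcripts of 1.82 kb or less and all higher in KO/PEG. For Ppargc1a they were Kif21a (0.826, 0.829), Cxadr, Ivns1abp, Slc19a2 and Sgms2 (0.794 to 0.808). Esrrb was most like Dbn1 (0.796, 0.743), Gpt2, Pcp4l1, the proton pump subunit Atp4a (0.748, 0.69) and the parietal potassium channel Kcnq1 (0.743, 0.76). In KO/PEG versus WT/PEG Kcnq1 was not called (−0.11, edgeR adjusted p = 0.393), while Dbn1, Gpt2, Pcp4l1 and Atp4a were lower. Ppargc1b had no close match: its top genes Eif4g3, Rnf123, Cfap69, Usp49 and Dgkd were at r of 0.66 to 0.682. Between members, r was 0.771 for Esrrg and Ppargc1a, −0.75 for Esrra and Esrrg, and −0.0326 for Ppargc1a and Ppargc1b. These are descriptions, with no test, over libraries whose length slopes differ, also within a group (−0.353 to 0.154 in KO/PEG). The part of the slope in these correlations was not tested.

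More partners and regulators of the PGC-1 proteins fell than rose in KO/PEG versus WT/PEG, a balance that did not hold with the length slope as a covariate. Of 25 such genes, 17 were lower and 3 higher, with a median log2 fold change of −0.50 against 0.00 over all genes, of which 37.2% were lower and 37.5% higher. With library totals in place of scaling factors, which shifted the median of all genes by 0.29, 9 were lower and 5 higher (median −0.24). Perm1, a muscle regulator induced by PGC-1 and ERR, fell from 20.5 ± 5.29 CPM (SD) to 4.84 ± 1.70 CPM (log2 fold change −2.09, edgeR adjusted p = 3.23e-13). Prkaa2, a catalytic subunit of the energy sensor AMPK, fell from 29.6 ± 5.34 to 8.08 ± 4.73 CPM (−1.87, edgeR adjusted p = 1.02e-10), and the receptor coactivator Ncoa1 fell too (−0.78, edgeR adjusted p = 4.31e-09). The acetyltransferase Kat2a, which restrains PGC-1 alpha, rose (0.60, edgeR adjusted p = 1.21e-07), as did the lysosomal regulators Tfe3 (0.37, edgeR adjusted p = 1.70e-05) and Tfeb (0.60, edgeR adjusted p = 0.00117). Pprc1, the remaining member of the PGC-1 family and named here after its values were seen, was at 19.0 CPM in WT/PEG and 15.9 CPM in KO/PEG and was not called (−0.26, edgeR adjusted p = 0.149). With the length slope as a covariate 5 of the 25 genes were higher and 5 lower. Perm1 stayed called (−2.21, edgeR adjusted p = 5.01e-06), while Prkaa2 (−0.42), Ncoa1 (−0.10) and Kat2a (0.15) were not called. Tfe3 turned to −0.13 and was not called, and Tfeb turned to −0.82. In KO/NTZ versus KO/PEG 2 of the 25 genes rose and 23 were not called. The 8.0% called was close to the 5.56% of all genes. The CREB coactivator Crtc2 was among those that rose (0.39, edgeR adjusted p = 0.0368).

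Among 14 tested nuclear receptors of other families that PGC-1 proteins coactivate, 6 were higher and 6 lower in KO/PEG versus WT/PEG, with a median log2 fold change of 0.05 (0.35 with library totals). The share called was 85.7%, beside 74.7% of all genes. Ppara, the fatty acid sensor, fell from 4.24 ± 0.713 CPM (SD) to 0.658 ± 0.443 CPM (−2.64, edgeR adjusted p = 3.36e-10). The glucocorticoid receptor Nr3c1 fell by 1.37 (edgeR adjusted p = 1.67e-09) and the common partner Rxra fell by 0.63 on the log2 scale (edgeR adjusted p = 1.51e-09). Ppard (0.55), Vdr (0.99) and Rxrb (0.43) rose (edgeR adjusted p = 2.64e-05, 4.83e-05 and 7.14e-05). With slope adjustment, Ppara (−0.80) and Nr3c1 (−0.05) were not called, Rxra (−0.34) and Vdr (1.33) kept their calls, Ppard was not called (−0.14) and Rxrb turned to −0.33. Rxrg and Esr2 were too low to be tested, and no gene of the list was called with NTZ in KO or in WT.

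Genes that the receptors and PGC-1 are known to drive went both ways, and the balance of a list depended on the fit. In KO/PEG versus WT/PEG 74.7% of all genes were called, 37.2% lower and 37.5% higher, and of the citric acid cycle list below 88.9%. Of 18 citric acid cycle and pyruvate entry genes, 14 were lower and 2 higher in KO/PEG versus WT/PEG (median log2 fold change −0.44), and with library totals 7 were lower and 4 higher (median −0.15). Ogdh, a subunit of the oxoglutarate dehydrogenase, fell from 591.7 ± 48.4 to 326.4 ± 45.8 CPM (−0.86, edgeR adjusted p = 7.21e-14), Pdha1 of pyruvate dehydrogenase fell by 0.88 (edgeR adjusted p = 2.77e-13) and Dlat of the same complex fell by 0.66 on the log2 scale (edgeR adjusted p = 1.59e-11). Suclg1 and Mpc2 rose (0.33 each, edgeR adjusted p = 0.00357 and 0.0107). After adjustment for the slope, the counts were 12 lower and none higher, with Suclg1 at −0.54 and Mpc2 at −0.45.

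Of 18 fatty acid oxidation genes, 9 were lower and 5 higher (median −0.26, and 0.02 with library totals, where 7 were lower and 6 higher). The 77.8% called was close to the 74.7% of all genes. Cpt1a, which admits fatty acids to the mitochondrion, fell by 1.05 (edgeR adjusted p = 2.63e-09), Acadm, the medium-chain dehydrogenase and a classical ERR target, fell by 1.04 (edgeR adjusted p = 1.31e-09) and Etfdh fell by 0.94 (edgeR adjusted p = 4.30e-11). Eci2 (0.46), Etfb (0.89) and Acads (0.33) rose (edgeR adjusted p = 1.56e-06, 1.93e-05 and 0.00402). In the slope-adjusted fit 11 were lower and none higher, Etfb and Acads turned to −0.84 and −0.48, and Cpt1a (−0.15), Acadm (−0.44) and Eci2 (0.12) were not called.

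Of 32 nuclear genes of the respiratory chain and ATP synthase, 17 were higher and 6 lower (median 0.28), and the 71.9% called was close to the 74.7% of all genes. Cox6a1 (1.34), Cox5a (0.97) and Cox8a (0.94), short transcripts of cytochrome oxidase, rose (edgeR adjusted p = 4.74e-06, 3.96e-06 and 7.52e-06), and Ndufs1 of complex I fell from 219.4 to 109.4 CPM on average, Sdha of complex II fell by 0.76 and Atp5b of ATP synthase fell by 0.47 (edgeR adjusted p = 2.07e-11, 1.34e-08 and 4.70e-06). The direction of this list turned with the length slope. None of the 32 genes was higher and 26 were lower, with a median of −0.69, and Cox6a1 was at −1.04, Cox5a at −0.70 and Cox8a at −0.73, while Sdha was not called (−0.27, edgeR adjusted p = 0.213). With only KO animals numbered below 100, 4 were higher and 8 lower (median 0.09), and scaling by library totals alone gave 26 higher and 3 lower.

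Of 15 genes of mitochondrial gene expression and DNA maintenance, 7 were lower and 2 higher (median −0.13, and 0.16 with library totals, where 6 were higher and 2 lower). The 60.0% called was below the 74.7% of all genes. Gabpa, a subunit of nuclear respiratory factor GABP, fell by 1.17 (edgeR adjusted p = 7.24e-07), Tfb2m, a mitochondrial transcription factor, fell by 0.60 (edgeR adjusted p = 5.45e-07) and Yy1 fell by 0.67 on the log2 scale (edgeR adjusted p = 0.000275), while Ssbp1 (0.35) and Polg2 (0.59) rose (edgeR adjusted p = 3.00e-06 and 1.72e-05). With the length slope Yy1 turned to 0.52, Gabpa (0.35), Tfb2m (0.05) and Polg2 (0.21) were not called, and Ssbp1 (0.27) kept its call. Of 13 tested genes among 18 others known to respond to ERR or PGC-1, 9 were lower and 1 higher (median −0.30, and −0.03 with library totals, where 5 were lower and 2 higher). The 76.9% called was close to the share of all genes. Nnt, the mitochondrial transhydrogenase, fell by 1.76 (edgeR adjusted p = 2.93e-09), Pdk4, which blocks pyruvate dehydrogenase, fell by 1.69 (edgeR adjusted p = 1.52e-08), Slc25a4, an ADP/ATP carrier, fell by 0.88 (edgeR adjusted p = 4.65e-08) and Fndc5 rose by 1.13 on the log2 scale (edgeR adjusted p = 0.000316). Only Slc25a4 of these 4 was called with the length slope (−0.60). Nnt (−0.29) and Pdk4 (−0.43) lost their calls there, and Fndc5 turned to −0.38 and was not called. No gene of these 5 metabolic lists was called in KO/NTZ versus KO/PEG or in WT/NTZ versus WT/PEG in edgeR's test, where medians lay between −0.09 and 0.07.

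**Figure D5:**
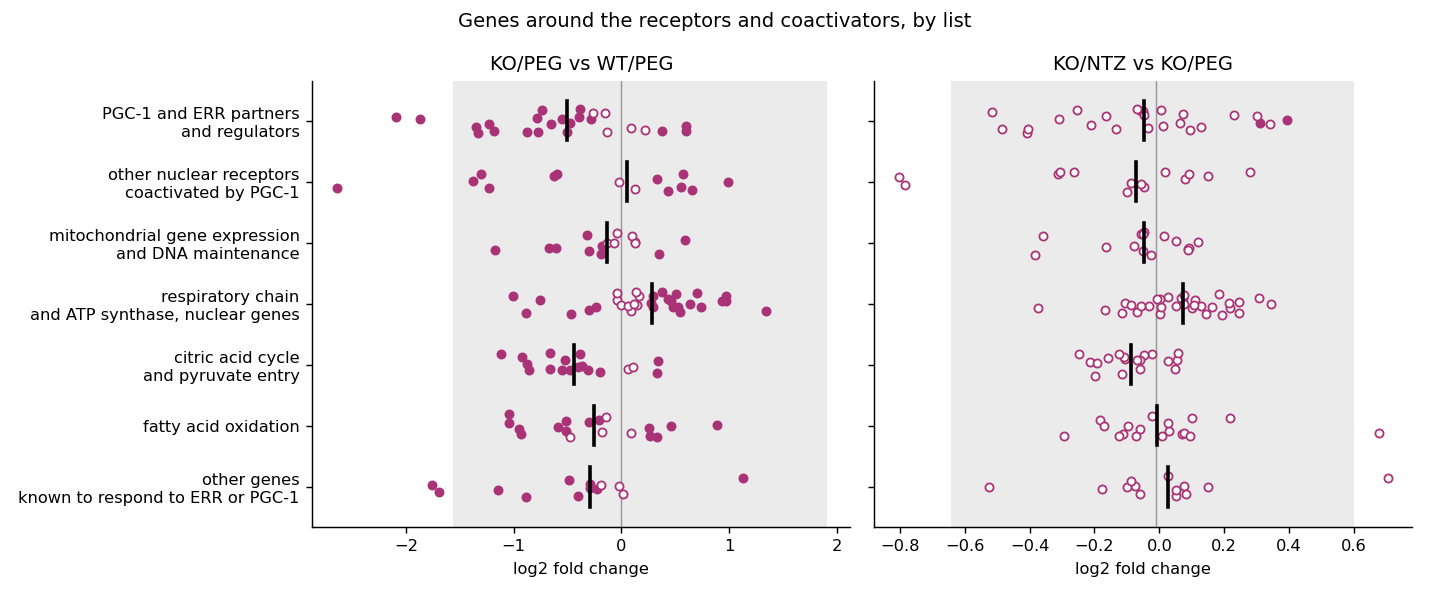
Log2 fold change of each gene in 7 lists around the receptors and coactivators, for KO/PEG versus WT/PEG on the left and KO/NTZ versus KO/PEG on the right, where each point is a gene, filled where the adjusted p is below 0.05, the black bar is the median of the list and the grey band spans the 5th to 95th percentile of all genes. With genotype the respiratory chain list has a median of 0.28 and the citric acid cycle list −0.44, and with NTZ in KO 2 points of the partner list are filled, Crtc2 among them.

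Of the promoter windows of these lists, 3.85% to 6.9% held the receptor element AAGGTCA (1 or 2 windows a list), beside 4.72% of all windows. The windows of Perm1, Acadm and Ogdh, which fell in KO/PEG versus WT/PEG, and of Sdhd are shown. Sdhd, which rose (0.27, edgeR adjusted p = 0.00137), was the only list gene whose window held the extended element TCAAGGTCA (in 0.423% of all windows). Up to 30 bases around the core are given, with the core in capitals on the strand of the gene.
Perm1, chr4:156215714-156215743, plus strand: ggaatccggtgTGACCTTagctaatgccaa
Acadm, chr3:153944874-153944893, minus strand: gTGACCTTcgggctccggtg
Ogdh, chr11:6292154-6292183, plus strand: ggacacggcgcTGACCTTggtgcctgcggc
Sdhd, chr9:50603800-50603824, minus strand: gggttgtagagTGACCTTgagccct
The core began 202 bases before the start site in Perm1, 5 bases before it in Ogdh and 36 bases after it in Sdhd. Because the core has 7 bases, that of Ogdh ran over the start site. Rxra, Mef2c, Twnk and Ckmt1 were the other list genes with the core in a window, of which Rxra and Mef2c were lower and Twnk and Ckmt1 were not called. A match is a stretch of letters and was not shown to be bound.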

How the data were processed

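Per the labels and the study's methods, poly(A) RNA of gastric corpus biopsies was made into stranded libraries, sequenced as single reads, and quantified by the authors with kallisto 0.42.4 on GRCm38 transcripts. The deposited values are estimated counts per transcript, not normalized. They were summed by GENCODE vM21 gene name: 92372 of 94080 transcripts had one, and the remainder held 0.329% to 1.3% of counts per library. Sums were rounded to whole counts, genes filtered with filterByExpr (minimum count 10), scaled by TMM and fitted with edgeR 4.0.16 (quasi-likelihood) as 4 group means over all 44 libraries, with p-values adjusted by Benjamini-Hochberg over 14901 genes. Confidence intervals cover the spread between libraries, and CPM are TMM-scaled. Transcripts were fitted in the same way.

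Ratios are differences of log2 CPM with a prior count of 2, tested by permutation of libraries (100000 resamples, or exact with fewer than 10 libraries). Length-scaled levels are TPM, computed here from the deposited counts and annotated transcript lengths over all transcripts with a gene name. The length slope is the regression of a library's centred log2 CPM on log2 transcript length. Members and gene lists were chosen with earlier results of these data known. List genes named are the 3 with the smallest p among those called in each direction for KO/PEG versus WT/PEG and KO/NTZ versus KO/PEG, every called gene of the partner list with NTZ in KO (of which 1 is not reported here), and the 5 genes most correlated with each member. Correlations with the length slope, length classes and 2 sets of left-out libraries were added after seeing the data. Alternatives were DESeq2 1.42.0, limma-trend 3.58.1, other scaling, no filter, fewer libraries, and covariates. Promoter windows are RefSeq, GRCm38.p6, and protein sequences were not analysed here.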

Additional observations from a re-analysis of the deposited data

Results flagged for a closer look

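The effect of NTZ on Ppargc1b differed between KO and WT by 0.84 on the log2 scale in a test of the difference itself. Levels were 3.42 CPM in KO/PEG and 5.15 CPM in KO/NTZ, and 8.60 CPM in WT/PEG and 7.17 CPM in WT/NTZ (means). In WT/NTZ, the only group small enough for a test of outlying values, WT_93 stood apart for Esrrb at 30.7 CPM, where the next highest WT/NTZ library was at 17.6 CPM. Chance sets a library apart in about 1 of 20 such groups, and 7 were tested (5 genes and 2 ratios).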

How the results depend on the processing

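The calls of all 5 members in both genotype comparisons held under each alternative fitted other than the length slope, under which those of Esrrb and Ppargc1a also held. Adding the length slope turned Esrra in KO/PEG versus WT/PEG (−0.53), KO/NTZ versus WT/NTZ (−0.27) and WT/NTZ versus WT/PEG (−0.11), and turned Esrrg in WT/NTZ versus WT/PEG (0.085). It left 3 members called in KO/NTZ versus WT/NTZ and 2 in KO/NTZ versus KO/PEG, and 4957, 1654, 73, 3166 and 1442 genes in the comparisons KO/PEG versus WT/PEG, KO/NTZ versus KO/PEG, WT/NTZ versus WT/PEG, KO/NTZ versus WT/NTZ and the difference of NTZ effects. The cause was not tested. With KO animals numbered below 100 no member was called in KO/NTZ versus KO/PEG (1402 genes) or for the difference of NTZ effects (0 members), Ppargc1a turned to 0.0014 in KO/NTZ versus KO/PEG and Esrrb to 0.0215 in the difference. The Ppargc1a to Ppargc1b ratio in KO/NTZ versus KO/PEG was −0.33 there and −0.60 with medians. The difference of NTZ effects had 0 members called with library totals, a setting that shifted the median of all genes by 0.29 in KO/PEG versus WT/PEG and made 71.0% of the called genes higher ones (50.2% with TMM), and 0 members and 38 genes without WT_92, WT_117 and WT_118, where WT/NTZ versus WT/PEG had 10 genes. Fits of only the groups compared called 267 genes for NTZ in KO and 0 for NTZ in WT. The number covariate gave 1 member and 312 genes in WT/NTZ versus WT/PEG and 1288 genes for NTZ in KO. DESeq2 called 1249 genes for NTZ in KO and 274 for the difference, and limma-trend 2 in WT/NTZ versus WT/PEG and 53 for the difference. Leaving out each of the 44 libraries gave 1 to 2 members for NTZ in KO. No paired analysis was possible because the groups share fewer than 2 animal numbers. Counts of 10 to 148 per KO library for Ppargc1a and 17 to 134 for Ppargc1b limit their precision.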
